A study of Mus musculus with 6 samples.

Results

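The 88 genes described here encode proteins of the mitochondrial respiratory chain, the assembly factors of its first complex and the mitochondrially encoded subunits of ATP synthase, and they were followed through microglia and other immune cells of the mouse hippocampus. They were taken by name from the 32429 genes of the count matrices: names starting with Nduf, Uqcr, mt-Nd, mt-Co, mt-Cyb or mt-Atp, the 4 Sdh subunit genes Sdha, Sdhb, Sdhc and Sdhd, and names starting with Cox4, Cox5, Cox6, Cox7 or Cox8, pseudogenes left out. Of the 88, 76 are nuclear and 12 are encoded by mitochondrial DNA, and these sets were kept apart throughout. Cytochrome b is named mt-Cytb in these files, so the prefix mt-Cyb matched no gene and cytochrome b is not among the 12.

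The respiratory chain passes electrons from NADH and succinate to oxygen across the inner mitochondrial membrane and pumps protons, and the proton gradient drives ATP synthase. Complex I (NADH dehydrogenase), complex III (cytochrome bc1) and complex IV (cytochrome c oxidase) combine subunits from both genomes, whereas complex II (succinate dehydrogenase), which also belongs to the citric acid cycle, is wholly nuclear. Nuclear subunits are translated on cytosolic ribosomes and imported, and mitochondrial ones are made inside the organelle, so the 2 sets of transcripts can move independently. Microglia, the resident macrophages of the brain, are known to shift between oxidative phosphorylation and glycolysis as they change state.

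The study sorted live CD45-positive cells from hippocampi of mice of a strain labelled BC57BL/6 and sequenced their RNA cell by cell, with a droplet kit that reads transcripts from the 5' end, after learned helplessness training, where mice first receive shocks they cannot avoid and are later scored on whether they escape. Of the 6 groups, 1 was never shocked. The acute groups received 180 inescapable shocks of 0.3 mA and then a test of 30 trials of 24 s, after which mice were called helpless or non-helpless. The chronic groups went through the same procedure and were tested again each week for 3 weeks, and were called non-helpless, non-recovered (still helpless) or recovered (helpless at first and no longer so later). Each group is 1 library, and neither the number of mice in it nor their age is given in the sources used here. No spread between replicates therefore exists, no test between groups was possible, and every interval below is an exact 95% interval that covers counting error only. Meninges and choroid plexus were removed and cells were enriched on Percoll before the sort.

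The files held 3005 cells and 14097425 UMIs (unique molecular identifiers, each standing for 1 captured transcript), with 121 to 687 cells and 438777 to 3260120 UMIs per library. Microglia, by the authors' cell types, numbered 2721 and had 303934 UMIs in the smallest library, the chronic non-recovered one, and 2711534 in the largest. All 7 microglial markers were detected in the microglia of each library, while neuron and astrocyte markers summed to at most 1.76 and 1.60 CPM (UMIs per 1000000 UMIs of the same cells). Neutrophil markers summed to 22472 CPM in non-recovered microglia, where 6790 of 6830 such UMIs came from 1 cell. Leaving out the 17 microglia, this cell among them, that failed a marker check, chosen after seeing the data, kept the direction of all 12 summed comparisons below. Scrublet, a doublet caller, marked 50 of the 2721 microglia, and doublets were kept. Cell barcodes occurring in a pair of libraries numbered 5. By the deposited batch column, acute helpless cells were batch 1, acute non-helpless cells batch 2 and all chronic cells batch 3, with non-shocked microglia in batch 2 (123) and batch 3 (429). Gene symbols also differed by batch: Ndufaf8, a complex I assembly factor, had 0 UMIs in batches 1 and 2 and 189 in batch 3, and its older symbol 1810043H04Rik had 204 and 0.

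Microglia expressed nearly the whole nuclear set. Of the 76 nuclear genes, 72 had at least 1 UMI in microglia, and 64 averaged at least 20 CPM over the 6 libraries. These 64 were all 7 core and all 29 accessory genes of complex I, all 4 of complex II, all 8 of complex III, 12 of the 20 grouped under complex IV and 4 of the 8 assembly factors. Ndufa4, first assigned to complex I and now counted with complex IV, was grouped with the latter. The genes below 20 CPM were mostly isoforms known from other tissues. The assembly factor Ndufaf8 is also among them through its naming. It had 32.2 CPM in microglia of batch 3, and its older symbol had 39.6 CPM in those of batches 1 and 2. Cox4i2, the lung and hypoxia form of subunit IV, had 1 UMI in all microglia against 4127 for Cox4i1. The heart and muscle forms Cox6a2 and Cox7a1 had 29 and 7 UMIs, against 1624 for Cox6a1 and 1472 for Cox7a2. Cox6b2, the testis form, had 25 UMIs against 1999 for Cox6b1. Cox7b2, Cox8b, Cox8c and Ndufa4l2, the last of these a paralogue induced by hypoxia, had 0 UMIs in microglia of all 6 libraries, while Cox8a had 3602 and Ndufa4 2141. Microglia thus carried the ubiquitous form at every paralogous position measured.

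Among the 12 mitochondrial genes, mt-Atp8 and mt-Nd4 split by the authors' batch, and mt-Atp8 also differed between libraries of batch 3. The level of mt-Atp8, a small subunit of ATP synthase, was 1432 to 1697 CPM in microglia of batches 1 and 2 and 116 to 401 CPM in batch 3. That of mt-Nd4, a core subunit of complex I, was 975 to 1513 CPM in batches 1 and 2 and 314 to 364 CPM in batch 3. Non-shocked microglia, a single group, differed between batch 2 and batch 3 by 7.45-fold in mt-Atp8 and 4.82-fold in mt-Nd4. The ranges of mt-Nd4l (1324 to 1393 against 1411 to 1662 CPM) and mt-Nd6 (27.7 to 42.3 against 42.8 to 49.4 CPM) did not overlap either, but lay much closer, and those of the other 8 mitochondrial genes overlapped.

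Both genes that followed the batch overlap a neighbour with which they share a messenger RNA. On the mitochondrial genome (GRCm38, plus strand) mt-Atp8 spans chrM:7766-7969 and its last 43 bases are also the first of mt-Atp6 (chrM:7927-8607). The gene mt-Nd4l spans chrM:9877-10173 and shares its last 7 bases with mt-Nd4 (chrM:10167-11544). The coding sequences of the upstream genes, from the GENCODE M21 transcripts, are shown because a read that covers shared bases overlaps both genes. Capitals mark the shared bases. Whether the overlaps have a part in the batch difference was not tested.
mt-Atp8: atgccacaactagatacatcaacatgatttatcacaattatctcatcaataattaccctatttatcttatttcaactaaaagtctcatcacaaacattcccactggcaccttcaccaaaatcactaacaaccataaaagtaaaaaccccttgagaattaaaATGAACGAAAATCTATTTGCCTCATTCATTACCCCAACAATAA
mt-Nd4l: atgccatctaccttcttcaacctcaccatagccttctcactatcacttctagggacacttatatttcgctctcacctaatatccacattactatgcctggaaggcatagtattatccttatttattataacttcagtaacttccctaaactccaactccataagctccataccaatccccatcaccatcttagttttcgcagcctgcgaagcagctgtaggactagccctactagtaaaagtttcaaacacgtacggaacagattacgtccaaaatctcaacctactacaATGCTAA
The sources used here do not say how reads that cover shared bases were counted in each batch, so the counts of these 4 genes are uncertain. Summed mitochondrial levels are therefore also given without mt-Atp8 and mt-Nd4.

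The ratio of mt-Atp8 to mt-Atp6 differed by library, with smaller differences between cell types of a library. In microglia it was 0.839 (0.716 to 0.981) in non-shocked cells of batch 2, 0.817 (0.782 to 0.853) in acute non-helpless and 0.751 (0.720 to 0.783) in acute helpless cells. In batch 3 it was 0.122 (0.110 to 0.136) in non-shocked, 0.151 (0.138 to 0.165) in chronic non-helpless, 0.207 (0.169 to 0.252) in non-recovered and 0.0659 (0.0568 to 0.0760) in recovered microglia. T cells of the same libraries gave 0.147 in the chronic non-helpless, 0.208 in the non-recovered library and 0.0614 in recovered cells. Libraries within batch 3 thus differed as well, and in these 3 T cells lay close to the microglia sequenced with them. T cell barcodes also held microglial RNA, so this closeness is in part built in. The 7 microglial markers took 2.70% of UMIs in chronic non-helpless and 2.47% in recovered T cells, against 3.94% and 3.83% in microglia. Non-shocked cells of batch 3 differed more by type, at 0.0893 (0.0663 to 0.118) in T cells and 0.0553 (0.0281 to 0.0986) in NK cells, below the microglial 0.122.

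The summed level of the nuclear genes was highest in the acute libraries and lowest in the non-recovered one. It was 6335 CPM (6222 to 6450) in non-shocked, 8524 CPM (8404 to 8645) in acute non-helpless and 8393 CPM (8284 to 8503) in acute helpless microglia. It was 7272 CPM (7158 to 7388) in chronic non-helpless, 5623 CPM (5359 to 5896) in non-recovered and 7907 CPM (7774 to 8040) in recovered microglia. Intervals of neighbouring libraries in this order did not overlap, except those of the acute pair. Non-shocked microglia split by batch into 4890 CPM (4567 to 5229) in batch 2, which was below every library, and 6484 CPM (6363 to 6606) in batch 3.

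**Figure D1:**
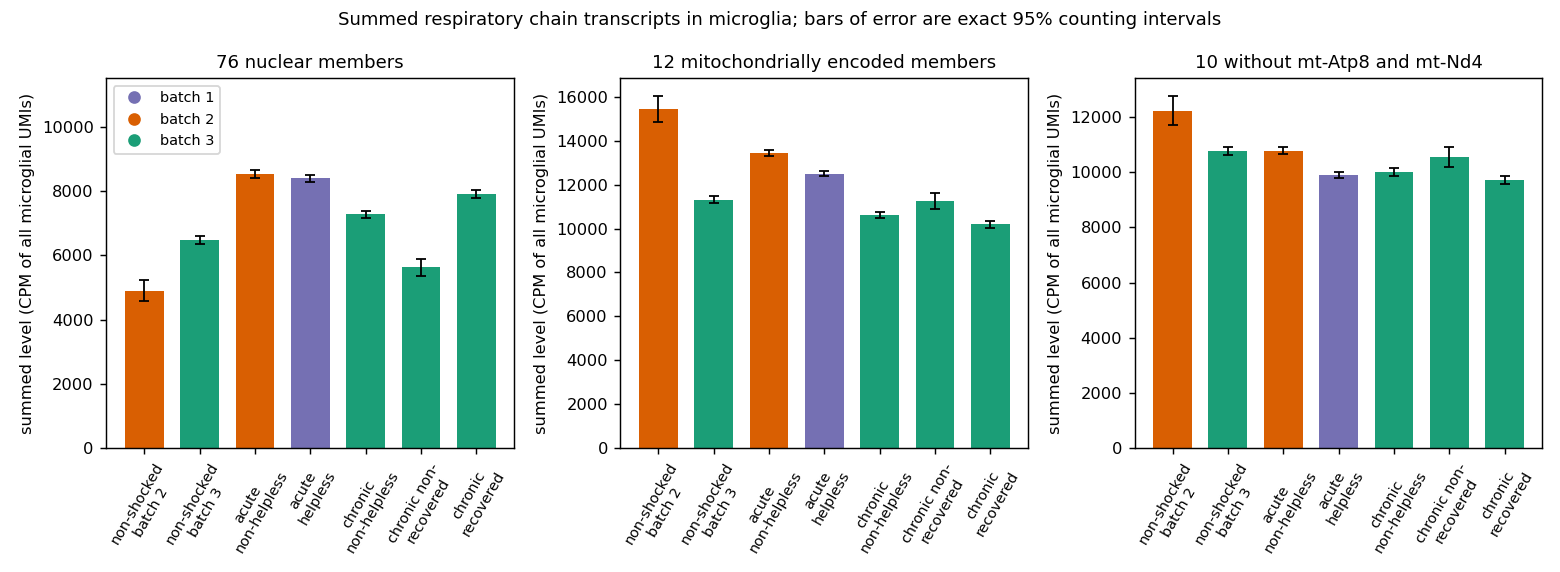
Summed level, in CPM of all microglial UMIs, of the 76 nuclear genes, the 12 mitochondrial genes and the 10 mitochondrial genes without mt-Atp8 and mt-Nd4, with exact 95% counting intervals and bars coloured by the authors' batch. Nuclear levels run from 4890 CPM in non-shocked microglia of batch 2 to 8524 CPM in the acute non-helpless library, and the excess of batches 1 and 2 in the 12 mitochondrial genes is smaller once mt-Atp8 and mt-Nd4 are left out.

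Mitochondrial transcripts did not follow this order. The 12 genes summed to 11691 CPM in non-shocked cells, 13435 in the acute non-helpless library, 12506 in acute helpless, 10612 in chronic non-helpless, 11256 in non-recovered and 10187 in recovered microglia. Without mt-Atp8 and mt-Nd4 the levels were 10901, 10782, 9892, 10003, 10535 and 9707 CPM in the same order. The recovered library, with a high nuclear level, was lowest on both counts, and the range over libraries shrank to between 9707 and 10901 CPM.

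Single nuclear genes mostly repeated the order of their sum. Of the 64 genes that averaged at least 20 CPM, 41 were lowest in the non-recovered and 16 in the non-shocked library, and 27 were highest in the acute non-helpless and 22 in the acute helpless library. The ratio of the highest to the lowest library had a median of 1.70 (range 1.47 to 2.3) in complex IV and 1.72 (1.22 to 3.99) in complex I accessory genes. It was 1.5 (1.33 to 1.99) in complex I core genes, 1.49 (1.18 to 1.75) in complex III and 1.55 (1.19 to 1.72) in complex II. Cox4i1, the regulatory subunit IV of cytochrome c oxidase, had 271 CPM in non-shocked microglia, 422 in the acute non-helpless library, 424 in acute helpless, 379 in chronic non-helpless, 184 in non-recovered and 377 in recovered microglia. Its acute libraries were highest and the non-recovered library stood alone at the bottom. Ndufb3, an accessory subunit of the membrane arm of complex I, had the widest range, with 77.9, 105, 95.1, 74.6, 26.3 and 84.0 CPM in the same order, the non-recovered value resting on 8 UMIs.

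**Figure D2:**
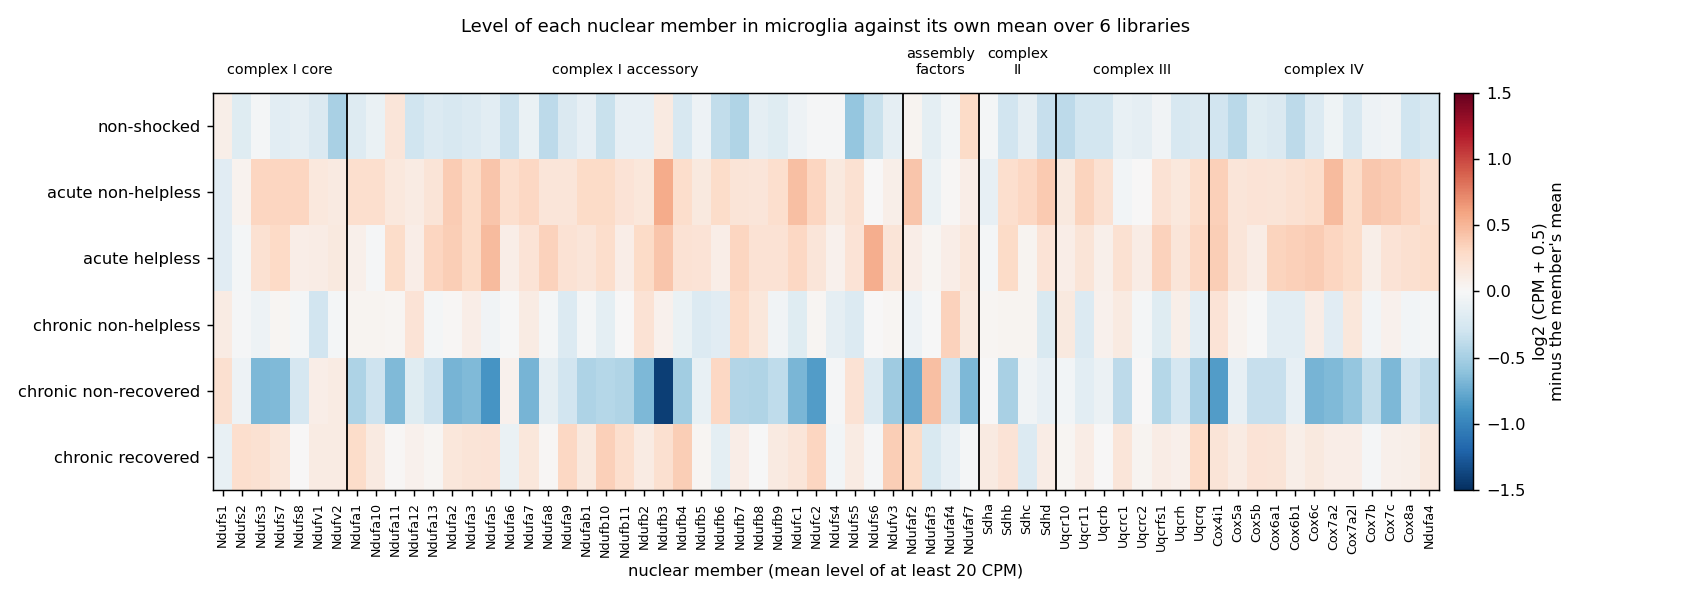
Level of each of the 64 nuclear genes with a mean of at least 20 CPM in microglia of 6 libraries, as log2(CPM + 0.5) minus the gene's own mean over the libraries, grouped by complex. The non-recovered row is blue (below the mean) for most genes and most strongly for Ndufb3, the acute rows are mostly red (above the mean), and Sdha, Ndufs1 and Uqcrc2 vary little.

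Some genes kept nearly the same level everywhere. Sdha, the flavoprotein that oxidizes succinate, had 125, 117, 125, 130, 128 and 140 CPM in the order used for Cox4i1, and Uqcrc2, a core protein of complex III, varied by 1.18-fold. Ndufs1, the largest core subunit of complex I, had 44.3, 37.0, 37.2, 45.5, 49.4 and 38.8 CPM, lowest in the acute libraries and highest in the non-recovered one. The non-recovered value of Ndufs1 rests on 15 UMIs, and its ratio to recovered microglia was 1.27 with an interval that holds 1 (0.675 to 2.25). The other complex II genes did not share the flat level of Sdha. Sdhb, its iron-sulfur partner, had 110, 159, 164, 137, 95.4 and 155 CPM, and the membrane anchor Sdhd had 61.9, 104, 91.1, 67.6, 72.4 and 85.1 CPM.

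The acute libraries address what sets helpless apart from non-helpless mice after the same shocks, and here the nuclear genes lay close together. The summed nuclear level of acute helpless microglia was 0.985 times that of acute non-helpless microglia (0.966 to 1.00), a log2 difference of -0.02 that becomes 0.07 under median-of-ratios scaling. None of the 65 nuclear genes that reached 20 CPM in either library lay 1.5-fold apart in either direction, where 8.89% of all 6907 genes tested were at least 1.5-fold higher and 9.28% lower. The median log2 ratio was -0.01 over the nuclear genes and -0.06 over all genes, and 0.09 and 0.04 under median-of-ratios scaling. The intervals of 61 of the 65 held a ratio of 1. Intervals were counted for the nuclear genes only, so no share over all genes is given for them. Under median-of-ratios scaling 1 nuclear gene was at least 1.5-fold higher, where 10.8% of all genes tested were. Of all genes past 1.5-fold 63.3% were then higher ones, against 48.9% as reported.

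The nuclear gene farthest apart in this comparison was Ndufs6, a zinc-binding accessory subunit of complex I, at 61.2 CPM in acute helpless and 41.9 CPM in acute non-helpless microglia, 1.46-fold higher (1.13 to 1.90). Uqcrc1, a core protein of complex III, followed at 1.21-fold higher (1.04 to 1.41). At the other end Cox7b, a small subunit of complex IV, stood at 108 against 135 CPM, 1.25-fold lower (1.06 to 1.47), and Ndufaf2, an assembly factor, at 24.3 against 30.4 CPM with an interval that holds 1. Mitochondrial genes summed to 1.07-fold lower (1.06 to 1.09) in the helpless library and 1.09-fold lower (1.07 to 1.11) without mt-Atp8 and mt-Nd4, a direction that turned when each cell was weighted equally (log2 0.05). Of the 12, 1 was at least 1.5-fold lower, mt-Nd6 at 27.7 against 42.3 CPM. These libraries belong to different batches, and batch and group cannot be told apart.

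Against non-shocked microglia of the same batch, acute non-helpless microglia had a higher share of nuclear respiratory chain transcripts. The summed nuclear level was 1.74-fold higher (1.63 to 1.87), at 8524 against 4890 CPM. Of 65 nuclear genes tested, 45 were at least 1.5-fold higher and 0 lower, where 18.8% of all 7759 genes tested were higher and 37.9% lower. The median log2 ratio was 0.80 over the nuclear genes and -0.27 over all genes. The intervals of 29 of the 65 lay above 1 and those of 36 held 1, a count for which no share over all genes is given. Complex IV was 1.93-fold higher (1.70 to 2.21), with 10 of 12 genes past 1.5-fold, and complex I accessory genes 1.82-fold (1.63 to 2.04), with 25 of 29. Complex III was 1.60-fold higher (1.33 to 1.92), complex I core genes 1.53-fold (1.21 to 1.94) and complex II 1.37-fold (1.04 to 1.83).

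Cox8a, a small structural subunit of complex IV, rested on 873 UMIs in acute non-helpless and 25 in non-shocked microglia, 385 against 143 CPM, or 2.69-fold higher (1.81 to 4.17). Cox4i1 was 2.3-fold higher (1.62 to 3.38) and Cox7c 2.03-fold (1.41 to 3.03). Ndufb10, an accessory subunit of complex I, was 3.76-fold higher (1.71 to 10.3) and Ndufv2, a core subunit that takes part in NADH oxidation, 3.46-fold (1.46 to 10.8). These intervals are wide because non-shocked microglia of batch 2 gave few UMIs per gene: Ndufa5 had 2 there against 167, a ratio of 6.42 (1.75 to 53.5). Ndufs1, Ndufs3 and Uqcrh lay near parity, at 1.08, 1.08 and 1.10 times the non-shocked level, with intervals that hold 1.

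The 123 non-shocked microglia of batch 2 were shallow, with a median of 905 UMIs against 3676 in the acute non-helpless library. Cells with under 2.5% of their UMIs in cytosolic ribosomal protein genes, called ribosome-poor here, made up 65.0% of them (55.9 to 73.4) and 9.31% (7.05 to 12) of acute non-helpless microglia. Malat1, a nuclear RNA, stood at 34480 CPM in the former and 11715 CPM in the latter. Among the other microglia alone the nuclear log2 ratio was 0.32 in place of 0.80, with 22 of 66 genes at least 1.5-fold higher and 3 lower, where 11.3% and 37.4% of all genes tested were. Sdhb turned to a log2 ratio of -0.09 there. Median-of-ratios scaling gave 1.17, with 56 genes higher, where 32.2% of all genes tested were higher. It moved the share of higher genes among all genes past 1.5-fold from 33.1% to 56.4%. With non-shocked cells of all batches the log2 ratio was 0.43, with 13 genes past 1.5-fold, a setting for which no share over all genes is given. Mitochondrial genes summed to 0.870 times the non-shocked level (0.836 to 0.905), but this direction turned under median-of-ratios scaling (log2 0.16), without ribosome-poor cells (0.33), in cells with under 5% mitochondrial UMIs (0.10) and against non-shocked cells of all batches (0.20).

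The non-recovered and recovered libraries address what sets lasting helplessness apart from recovery, and both belong to batch 3. Non-recovered microglia had fewer transcripts of the nuclear genes: 5623 against 7907 CPM, 1.41-fold lower (1.34 to 1.48). Of 66 nuclear genes tested, 28 were at least 1.5-fold lower and 1 higher, where 12.5% of all 7455 genes tested were lower and 27.1% higher. The median log2 ratio was -0.54 over the nuclear genes and 0.16 over all genes. The intervals of 24 nuclear genes lay wholly below 1, a count for which no share over all genes is given. Complex IV was 1.52-fold lower (1.38 to 1.67), with 5 of 12 genes past 1.5-fold, and complex I accessory genes 1.47-fold lower (1.35 to 1.60), with 16 of 29. Complex I core genes were 1.26-fold lower (1.07 to 1.5), complex III 1.25-fold lower (1.10 to 1.43) and complex II 1.24-fold lower (1.00 to 1.54).

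The nuclear genes farthest apart were accessory subunits of complex I, while among the mitochondrial genes mt-Atp8, whose counting is uncertain, was 3.45-fold higher (2.73 to 4.34) at 401 against 116 CPM. Ndufb3 had 8 UMIs in non-recovered and 145 in recovered microglia, 3.19-fold lower (1.58 to 7.53), and Ndufc2, at 102 against 228 CPM, was 2.23-fold lower (1.55 to 3.33). Ndufa5, at 29.6 against 63.7 CPM, was 2.15-fold lower (1.09 to 4.83). In complex IV, Cox4i1 was 2.05-fold lower (1.56 to 2.74), Cox7c 1.68-fold (1.26 to 2.29) and Cox8a 1.33-fold (1.04 to 1.71). Ndufa6, Ndufs5 and Ndufv2, all of complex I, stood at 1.11, 1.07 and 1.00 times the recovered level, and Sdha at 0.916 times (0.635 to 1.29). The 1 gene past 1.5-fold in the other direction was the assembly factor Ndufaf3, named after its value was seen, at 59.2 against 37.1 CPM from 18 UMIs (1.60-fold, 0.891 to 2.73).

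Non-recovered microglia also differed from chronic non-helpless microglia, which did not become helpless under the same procedure. This comparison shares the non-recovered library with the one before, so the values stand side by side and are not independent. The nuclear level was 1.29-fold lower (1.23 to 1.36) at 5623 against 7272 CPM. Of 65 genes, 20 were at least 1.5-fold lower and 0 higher, where 12.4% of all 7507 genes tested were lower and 24.5% higher. Ndufb3 was 2.83-fold lower (1.40 to 6.68), Cox4i1 2.05-fold lower (1.57 to 2.74) and Cox7c 1.67-fold lower (1.25 to 2.26), while Sdha stood at 0.987 times (0.687 to 1.38) and Ndufs5, another accessory subunit of complex I, at 1.34 times (0.875 to 1.99).

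Ribosome-poor cells made up 53.5% (43.2 to 63.6) of the 99 non-recovered microglia, 9.41% (6.64 to 12.8) of recovered and 15.6% (12.6 to 19.1) of chronic non-helpless microglia. The nuclear RNA Malat1 stood at 20754 CPM in non-recovered, 10374 in recovered and 12063 in chronic non-helpless microglia. Without ribosome-poor cells the non-recovered nuclear level differed by a log2 ratio of -0.20 from the recovered and -0.11 from the chronic non-helpless library, in place of -0.49 and -0.37. Then 8 of 66 nuclear genes were at least 1.5-fold lower and 2 higher against recovered microglia, where 12.3% and 21.6% of all genes tested were, and 5 of 65 were lower and 1 higher against chronic non-helpless microglia, where 13.6% and 22% were. Median-of-ratios scaling gave -0.70 and -0.54, with 39 and 29 genes lower, where 20.8% and 19.8% of all genes tested were lower. It moved the share of higher genes among all genes past 1.5-fold from 68.5% to 47.7% and from 66.4% to 48.7%. Without the neutrophil-rich cell and the others that failed the marker check the log2 ratios were -0.53 and -0.44. Mitochondrial genes summed to 1.10-fold higher (1.06 to 1.15) than in recovered and 1.06-fold higher (1.02 to 1.10) than in chronic non-helpless microglia, but both directions turned under median-of-ratios scaling (log2 -0.07 and -0.09) and without ribosome-poor cells (-0.15 and -0.23).

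Recovered and chronic non-helpless microglia lay close together. The recovered nuclear level was 1.09-fold higher (1.06 to 1.11), and 0 of 66 genes lay 1.5-fold apart, where 4.04% of all 6927 genes tested were higher and 3.2% lower. The intervals of 11 genes lay above 1 and that of 1 below, a count for which no share over all genes is given. Ndufa9, an accessory subunit between the arms of complex I, was 1.44-fold higher (1.13 to 1.84), Ndufb10 1.41-fold (1.17 to 1.71) and Ndufb4 1.39-fold (1.16 to 1.67). The assembly factor Ndufaf4 was lowest, at 33.6 against 46.9 CPM (0.716 times, 0.509 to 0.999). The mitochondrial sum stood at 0.960 times the non-helpless level (0.941 to 0.979) and did not turn under any alternative.

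Few nuclear genes lay far apart between chronic non-helpless microglia and their non-shocked counterparts of batch 3. The nuclear level was 1.12-fold higher (1.09 to 1.15) in the whole library, but 0.955 times in cluster 1 and 1.32-fold higher in cluster 3. Of 65 genes 1 was at least 1.5-fold higher and 0 lower, where 3.73% of all 7320 genes tested were higher and 13.3% lower. That gene was Ndufb7, an accessory subunit of the membrane arm of complex I, at 105 against 63.6 CPM, 1.65-fold higher (1.30 to 2.09). Uqcr10, a small subunit of complex III, was 1.49-fold higher (1.21 to 1.85) and Ndufa12 1.41-fold (1.09 to 1.84). Ribosome-poor cells made up 34.3% (29.8 to 39.0) of these non-shocked microglia, and without them the nuclear log2 ratio was 0.04 in place of 0.17, with 0 genes past 1.5-fold. Mitochondrial genes summed to 0.939 times (0.921 to 0.957), a direction that turned without ribosome-poor cells (log2 0.12).

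How far cells of 1 group can differ was read from the non-shocked library, whose microglia came from batches 2 and 3. Batch 2 was 1.33-fold lower (1.24 to 1.42) in the nuclear genes, with 26 of 65 genes at least 1.5-fold lower and 3 higher, where 19.6% of all 8096 genes tested were lower and 28.9% higher. Ndufaf8 is among the 26, with 0 UMIs in batch 2, where it was listed under its older symbol. The difference is close in size to that between the non-recovered and the other chronic libraries. Ndufa5 was 4.62-fold lower (1.24 to 38.7, from 2 UMIs) and Ndufb10 2.58-fold lower (1.16 to 7.15). The mitochondrial sum was 1.37-fold higher (1.31 to 1.42) in batch 2 and 1.14-fold higher (1.09 to 1.19) without mt-Atp8 and mt-Nd4.

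Beyond mt-Atp8 and mt-Nd4, single mitochondrial genes differed little between libraries. The ratio of the highest to the lowest of the 6 libraries was 1.12 for mt-Co1, the catalytic subunit of complex IV, 1.15 for mt-Co2, 1.16 for mt-Co3 and 1.21 for mt-Atp6. The complex I genes mt-Nd1 and mt-Nd2 each varied by 1.24-fold and mt-Nd3 by 1.37-fold. Those of low level, mt-Nd5 (221 to 338 CPM) and mt-Nd6 (27.7 to 48.0 CPM), varied by 1.53-fold and 1.74-fold. Cytochrome b, outside the name rule, had 1186 to 1408 CPM.

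**Figure D3:**
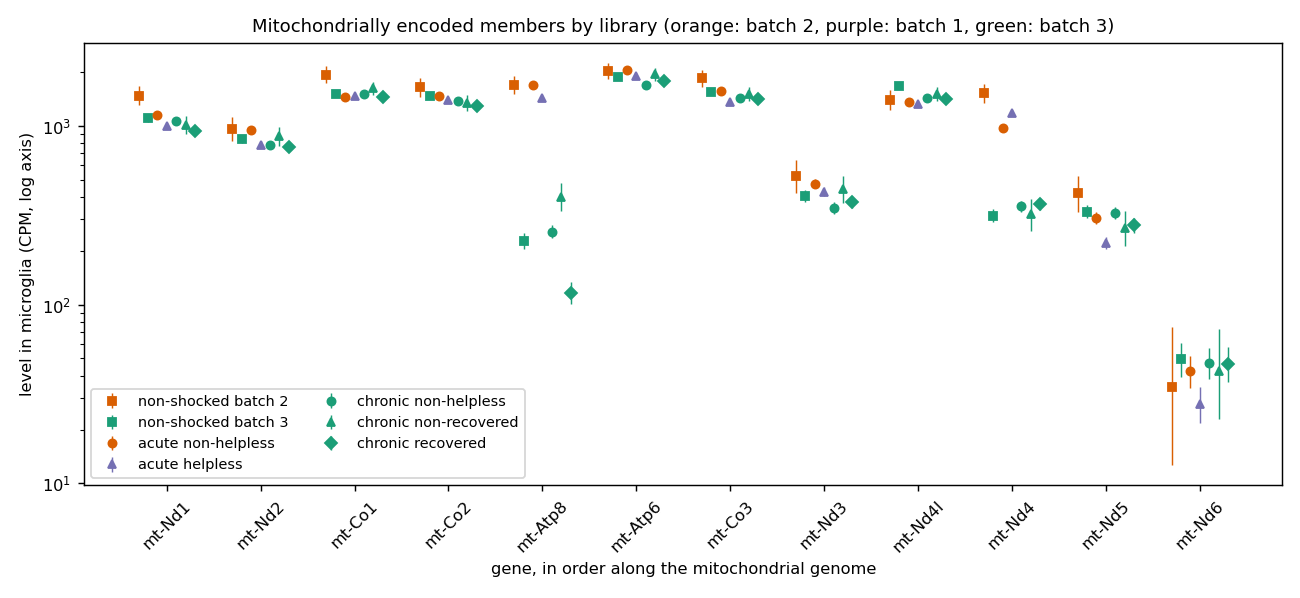
Level of the 12 mitochondrial genes, in CPM on a log axis and in their order along the mitochondrial genome, in microglia of each library with non-shocked cells split by batch, with exact 95% counting intervals. Green symbols (batch 3) fall far below the others for mt-Atp8 and mt-Nd4 and lie among them or close to them for the other 10 genes.

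The nuclear and the mitochondrial genes parted most clearly between cells of the same library. In ribosome-poor microglia nearly all nuclear genes were lower and all mitochondrial genes higher than in the other microglia beside them. With levels averaged over the 6 libraries, 54 of 65 nuclear genes were at least 1.5-fold lower and 1 higher, where 20.8% of all 7857 genes tested were lower and 40.6% higher. The median gene was 2.77-fold lower, against a median log2 ratio of 0.34 over all genes. Of the 65, 52 were lower in each of the 6 libraries, as were 16.1% of all genes. All 12 mitochondrial genes were at least 1.5-fold higher, with a median log2 ratio of 0.92, and 10 of them were higher in every library. Ribosome-poor cells were also shallower, with a median of 1484 to 2097 UMIs by library against 3288 to 4854 in the classes of 2.5% to 5% and of 5% or more. Cells with at least 5% mitochondrial UMIs made up 10.9% of cluster 3 and 8.51% of cluster 6, both rich in ribosome-poor cells, and 0% of cluster 1. The part of depth and RNA quality in these ratios was not tested. The cut at 2.5% is a range on a continuous scale, and 57 of the 2721 microglia had between 2% and 3%.

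The complexes differed in how much they were reduced. All 12 measured genes of complex IV were at least 1.5-fold lower, with a median of 3.54-fold, as were 26 of 29 accessory genes of complex I (median 3.06-fold) and 7 of 8 genes of complex III (3.07-fold). Complex II had 3 of 4 genes past 1.5-fold (2.12-fold) and the complex I core 4 of 7 (1.74-fold). Among 5 assembly factors 2 were lower and 1, Ndufaf4, higher.

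Cox6b1, a subunit on the outer face of complex IV, had 31.6 CPM in ribosome-poor and 162 CPM in other non-shocked microglia, and 22.3 against 209 CPM in the acute non-helpless library. It had 18.6 against 234 CPM in acute helpless, 48.7 against 164 CPM in chronic non-helpless, 10.2 against 228 CPM in non-recovered and 28.0 against 191 CPM in recovered microglia. The ranges of the 2 kinds of cells did not overlap, and the mean was 7.46-fold lower. Ndufs6 averaged 4.56 against 48.2 CPM, with 0 UMIs in ribosome-poor cells of 3 libraries, so its ratio is poorly determined. Ndufa8 averaged 15.8 against 98.3 CPM and Cox7a2 22.3 against 137 CPM, both with 0 UMIs in ribosome-poor cells of the recovered library, and Cox6c was 6.16-fold lower.

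A few core subunits did not follow this pattern. Sdha had 151 against 118 CPM in non-shocked, 167 against 115 in acute non-helpless, 247 against 117 in acute helpless, 110 against 132 in chronic non-helpless, 153 against 116 in non-recovered and 168 against 139 in recovered microglia, so it was higher in ribosome-poor cells of 5 of 6 libraries. Ndufs1 stood at 45.9 against 40.5 CPM, Ndufv1, which binds NADH, at 48.5 against 52.6 CPM and Uqcrc2 at 99.1 against 117 CPM. Averaged over the libraries these genes stayed within 1.5-fold. Other core subunits did not: 4 of the 7 core genes of complex I and 7 of the 8 genes of complex III were at least 1.5-fold lower.

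**Figure D4:**
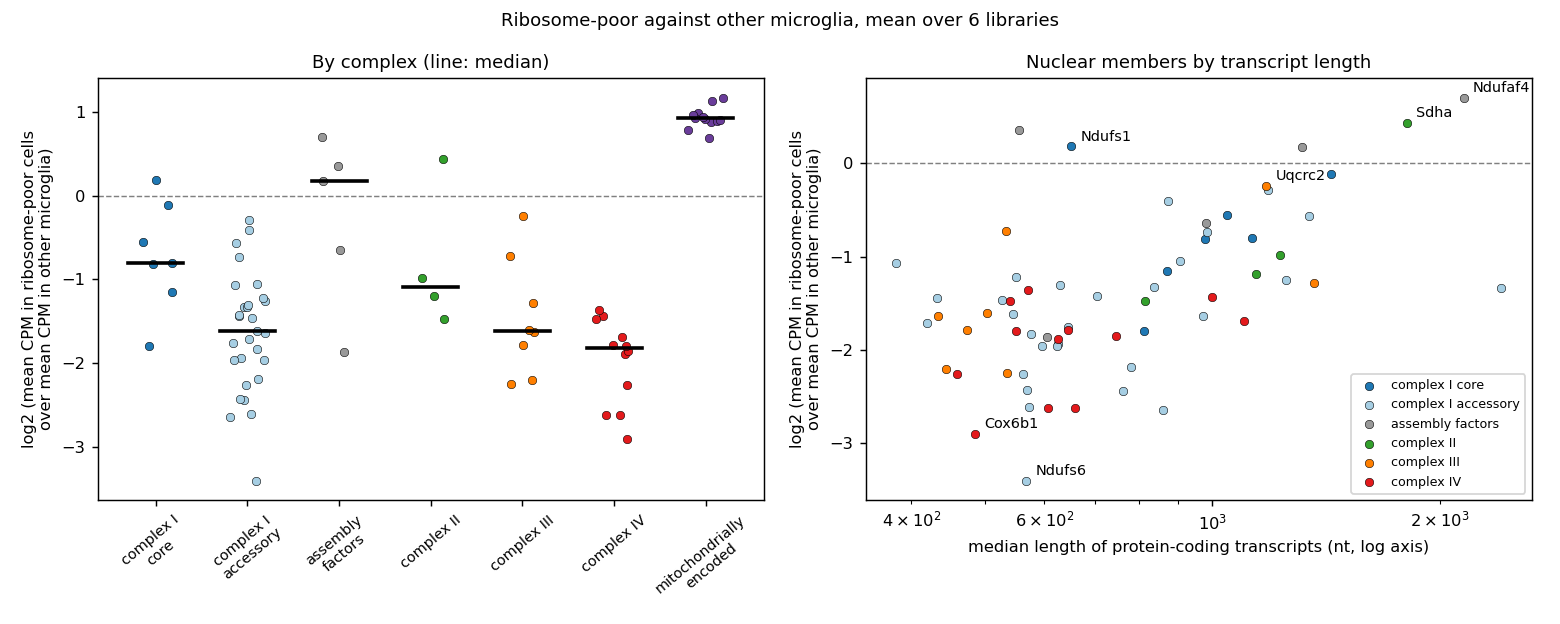
Log2 ratio of the mean CPM in ribosome-poor microglia to that in other microglia over 6 libraries, for each gene by complex (left, line at the median) and for nuclear genes against the median length of their protein-coding transcripts (right, log axis). All 12 mitochondrial genes lie above 0, complex IV lies wholly below, and the long transcripts of Sdha and Ndufaf4 lie above 0 while Ndufs6 and Cox6b1 are lowest.

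Transcript length went with this difference. Over the 65 nuclear genes the log2 ratio and the log2 of the median length of a gene's protein-coding transcripts (GENCODE M21) correlated with r = 0.55 and rho = 0.52, and over 7560 of all genes with r = 0.47 and rho = 0.48. Genes of 1 set of libraries are not independent points. Nuclear genes under 700 nt (34 genes) had a median log2 ratio of -1.79, those of 700 to 1000 nt (15) -1.42 and those of 1000 to 2000 nt (14) -0.68. The same classes of all genes had -0.54, -0.30 and -0.11, so within each class of this measure the nuclear genes lay lower than all genes. This median need not match the transcript that a cell expresses. Ndufs1, the largest core subunit of complex I, had a median of 651 nt, and Ndufb2, an accessory gene, had 2413 nt. Some genes may therefore stand in the wrong class. Between non-recovered and recovered microglia the relation was weak in the nuclear genes (r = 0.08, rho = 0.08). Over all genes it was r = 0.20 and rho = 0.30, with median log2 ratios of -0.14 under 700 nt and 0.34 from 2000 nt on. For acute non-helpless against same-batch non-shocked microglia it was r = -0.34 in the nuclear genes and -0.38 over all genes, with median log2 ratios over all genes of 0.33 under 700 nt and -0.60 from 2000 nt on. What length, RNA quality or the capture of transcripts adds to these ratios was not tested.

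The promoters of 2 of the genes most reduced in ribosome-poor cells are shown because they carry the best known motifs of nuclear respiratory chain genes, those of NRF-1 and of the ETS factor GABPA (also called NRF-2). They are the 250 bases before the RefSeq start of each gene (GRCm38.p6), written in the direction of the gene, with the motif in capitals. The Cox6b1 promoter (chr7:30626115-30626364, minus strand) holds the GABPA motif on its reverse strand, and the Ndufa8 promoter (chr2:36049339-36049588, minus strand) ends in the NRF-1 motif.
Cox6b1: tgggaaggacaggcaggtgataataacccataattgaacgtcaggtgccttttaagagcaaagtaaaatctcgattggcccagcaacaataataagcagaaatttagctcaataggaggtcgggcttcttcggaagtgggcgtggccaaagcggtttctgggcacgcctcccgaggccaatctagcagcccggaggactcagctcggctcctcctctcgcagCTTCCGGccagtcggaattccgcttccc
Ndufa8: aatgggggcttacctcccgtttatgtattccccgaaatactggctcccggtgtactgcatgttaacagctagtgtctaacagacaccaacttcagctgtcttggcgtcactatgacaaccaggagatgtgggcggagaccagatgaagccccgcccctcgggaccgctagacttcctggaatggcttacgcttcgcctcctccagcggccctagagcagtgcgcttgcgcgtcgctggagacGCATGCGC
The motifs searched on both strands were GCATGCGC for NRF-1 and CCGGAAG for GABPA, and in these genes no match of one overlapped a match of the other, while NRF-1 matches on opposite strands can share bases, as in Cox6a1. Promoters were matched for 61 of the 76 nuclear genes. Of these 6, or 9.84%, held the NRF-1 motif, against 2.32% of all 27025 promoters of this length. The GABPA motif was in 10, or 16.4%, against 7.05%, and 15 genes held either. They include Sdhb (NRF-1), Sdhd (GABPA), Uqcrh (GABPA), Ndufa6 (NRF-1) and Cox6a1 (both). Among 66 promoters of cytosolic ribosomal protein genes, 0 held the NRF-1 and 19 the GABPA motif. Ndufs6 held neither in this window.

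The authors' 6 clusters divided the nuclear level in the same way. Clusters 1, 2, 4 and 5 had 8045, 8230, 8499 and 8743 CPM in the microglia of all libraries, and clusters 3 and 6 had 4640 and 4859 CPM. Cluster 4 held 39 microglia, and its 38 non-shocked ones alone had 7146 CPM (6429 to 7920), so its pooled value leans on 1 cell. Ribosome-poor cells made up 88.1% of cluster 3 and 72.3% of cluster 6, and 1.55% and 1.29% of clusters 1 and 2. Mitochondrial genes without mt-Atp8 and mt-Nd4 had 8707 and 10045 CPM in clusters 1 and 2 and 14446 and 14337 CPM in clusters 3 and 6. These clusters were made from the same cells' transcripts, so this is a description. Of the 99 non-recovered microglia 58 were in cluster 6 and 41 in cluster 1, while 326 of the 372 recovered microglia were in cluster 2, and 122 of the 123 non-shocked microglia of batch 2 were in cluster 6.

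Within a cluster the nuclear ratios were nearer to 1 in some comparisons and not in others. In cluster 1, non-recovered microglia had 6612 CPM of nuclear genes against 7137 in chronic non-helpless microglia, a ratio of 0.927 (0.869 to 0.988) where the whole libraries gave 0.773. Acute helpless against non-helpless microglia gave 0.999 (0.973 to 1.03) in cluster 1 and 1.00 (0.970 to 1.04) in cluster 2, and 1.09 (1.01 to 1.18) in cluster 3. In cluster 6, which alone held at least 20 cells of both, non-recovered microglia had 3978 CPM against 5518 in recovered microglia, a ratio of 0.721 (0.636 to 0.817), close to the 0.711 of the whole libraries. Ribosome-poor cells made up 87.9% and 69.6% of these cells. Chronic non-helpless against batch 3 non-shocked microglia gave nuclear ratios on either side of 1, at 0.955 (0.920 to 0.991) in cluster 1 and 1.32 (1.20 to 1.45) in cluster 3, where mitochondrial genes stood at 0.675 times (0.644 to 0.707). For recovered against chronic non-helpless microglia the nuclear ratio in cluster 2 was 1.06 (1.03 to 1.09). Acute mitochondrial ratios lay farther from 1 in clusters 2 and 3 than in the whole libraries, at 0.833 (0.810 to 0.857) and 1.13 (1.08 to 1.18). Mitochondrial genes, which were higher in the whole non-recovered library, were lower within cluster 6, at 0.846 times (0.793 to 0.903).

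**Figure D5:**
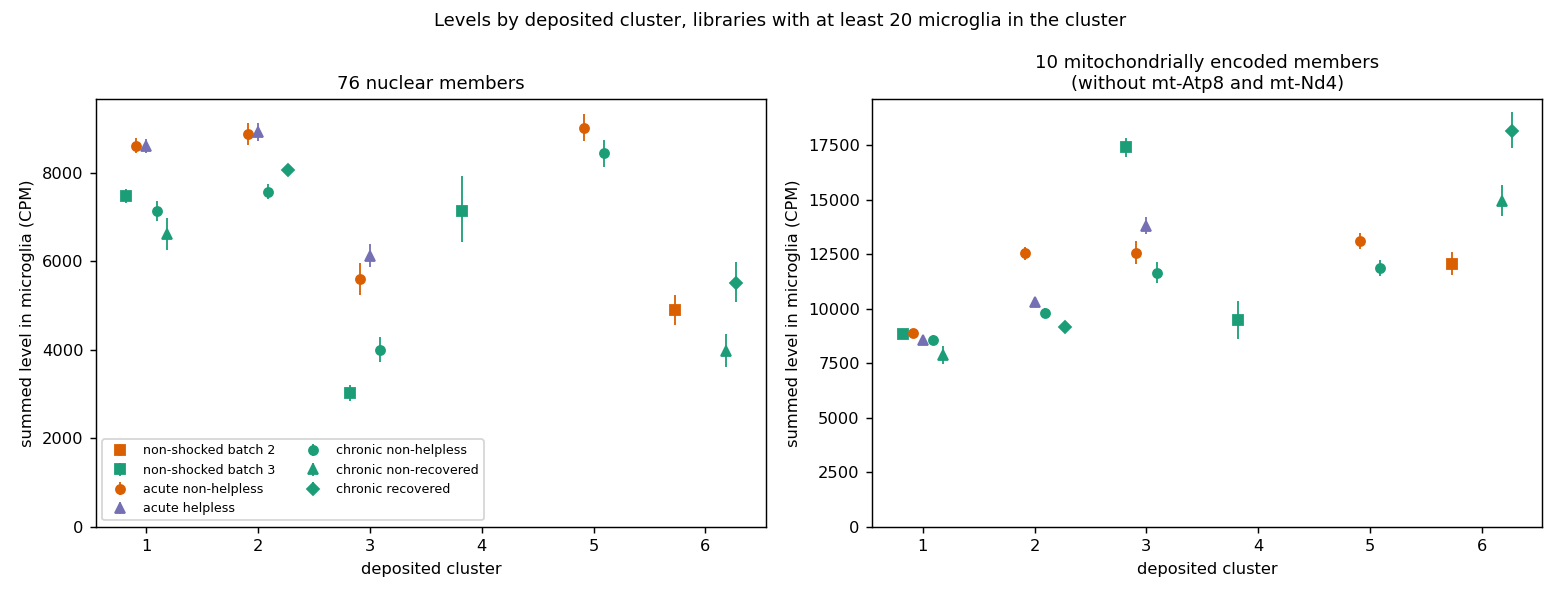
Summed level in CPM of the nuclear genes (left) and of the mitochondrial genes without mt-Atp8 and mt-Nd4 (right) in microglia by deposited cluster, for libraries with at least 20 microglia in the cluster, with exact 95% counting intervals and colours by batch. Nuclear levels in clusters 3 and 6 run from 3030 to 6123 CPM, below all values of clusters 1, 2, 4 and 5, while mitochondrial levels there run higher than in cluster 1.

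Per cell, fewer nuclear genes were detected in the libraries with the lower sum. With each cell thinned to 1000 UMIs, a microglial cell had on average 4.38 ± 2.86 nuclear genes with a UMI in the non-recovered library (SD over cells, 88 cells, 11 shallower ones left out). The means were 6.97 ± 2.95 in recovered, 6.19 ± 2.90 in chronic non-helpless, 5.24 ± 3.09 in non-shocked, 7.51 ± 3.06 in acute non-helpless and 7.19 ± 3.30 in acute helpless microglia, with 7, 4, 92, 7 and 0 cells left out. Without thinning the means were 13.6, 25.0, 22, 17.9, 22.8 and 23.8. The SD over cells was close to the largest difference between library means, that of acute non-helpless and non-recovered microglia. Across cells of 1 library with at least 1000 UMIs, the nuclear share of UMIs correlated with the ribosomal protein share at r between 0.39 and 0.81 and with the depth of the cell at r between 0.38 and 0.61. With the mitochondrial share it correlated weakly or negatively, at r between -0.38 and -0.005. These cells share their library and its total.

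Other immune cells of the sort carried more nuclear respiratory chain transcripts than microglia. Over all libraries together, the nuclear genes summed to 7700 CPM (7649 to 7752) in microglia, 9667 CPM (8992 to 10378) in 25 macrophages, 10785 CPM (10649 to 10923) in 161 T cells and 10860 CPM (10531 to 11197) in 42 monocytes. They summed to 12324 CPM (11937 to 12720) in 39 NK cells and 13543 CPM (12785 to 14333) in 17 B cells. The intervals of T cells and monocytes overlap, so the order of these types is not resolved. Complex IV genes summed to 2385 CPM in microglia and 5134 CPM in B cells, and complex I accessory genes to 3009 and 4952 CPM. T cells had 10413 CPM in the acute helpless, 9939 CPM in the chronic non-helpless and 11525 CPM in the recovered library. Of the 161 T cell barcodes, 116 had at least 0.5% of their UMIs in the 7 microglial markers, as did 27 of 42 monocytes, 20 of 39 NK cells, 9 of 25 macrophages and 0 of 17 B cells, so these levels mix in microglial RNA. The types also take different shares of their cells from each library, and the order of their pooled values was not tested within libraries. Median depth was 3987 UMIs in microglia, 2924 in macrophages, 4670 in B cells, 6254 in monocytes, 7463 in NK cells and 13381 in T cells. Ribosomal protein genes took 6.03% of UMIs in microglia and from 13.2% (monocytes) to 25.3% (B cells) in the other types. The part of depth and ribosomal share in these levels was not tested. Mitochondrial genes summed to 11794 CPM in microglia, 13380 in monocytes, 15067 in T cells, 17693 in NK cells, 29216 in macrophages and 34372 in B cells.

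Neighbouring pathways were read from lists of genes. Between non-recovered and recovered microglia, 8 of 16 nuclear ATP synthase genes were at least 1.5-fold lower and 0 higher (median log2 ratio -0.61), and 67 of 82 cytosolic ribosomal protein genes were lower (-0.78). Of 76 mitochondrial ribosomal protein genes 18 were lower and 4 higher (-0.31). Of 13 enzymes of the citric acid cycle 2 were lower (0.08), and of 13 glycolytic genes 1 was higher (-0.25). Genes of cytochrome c and its maturation (4 higher and 2 lower of 12, -0.09) and of mitochondrial biogenesis (2 higher and 1 lower of 10, 0.19) went in both directions. Over all genes tested in this comparison 27.1% were higher and 12.5% lower, so these last 2 lists lay near the shares of all genes. In acute non-helpless against same-batch non-shocked microglia, 15 of 16 ATP synthase, 77 of 84 cytosolic ribosomal protein, 43 of 75 mitochondrial ribosomal protein and 6 of 12 glycolytic genes were at least 1.5-fold higher. Of all genes tested 18.8% were higher and 37.9% lower. Among the mitochondrial ribosomal protein genes 6 were lower. Of 13 citric acid cycle genes 4 were higher and 0 lower (0.04). Genes of cytochrome c and its maturation had 5 higher and 2 lower of 12 (0.42). Those of biogenesis had 1 higher and 7 lower of 12 (-0.70). Between acute helpless and non-helpless microglia 0 of 16 ATP synthase, 0 of 13 citric acid cycle and 0 of 12 glycolytic genes lay 1.5-fold apart. In the other lists 3 of 11 biogenesis and 1 of 73 mitochondrial ribosomal protein genes were higher. There 1 of 84 cytosolic ribosomal protein and 1 of 11 cytochrome c genes were lower. Of all genes tested 8.89% were higher and 9.28% lower.

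In ribosome-poor cells the lists parted in the same way. Of 16 ATP synthase genes 14 were at least 1.5-fold lower (median 3.59-fold), of 76 mitochondrial ribosomal protein genes 47 (1.70-fold) and of 13 glycolytic genes 8 (1.81-fold). By contrast, of 13 citric acid cycle genes 3 were lower and 1 higher (median log2 ratio 0.01). The cytosolic ribosomal protein genes, which define these cells, were lower in 84 of 84 cases. Genes of cytochrome c and its maturation were lower in 5 of 13 and higher in 2. Those of biogenesis were higher in 6 of 13 (46.2%) and lower in 2 (15.4%). Of all 7857 genes tested 40.6% were higher and 20.8% lower, so the biogenesis list lay near the shares of all genes.

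The genes whose level most resembled the nuclear sum had other functions. Over 19 profiles of a library and cluster with at least 20 microglia and 3716 genes outside the set, the highest correlations of log2(CPM + 20) were those of Pfdn5, a subunit of the prefoldin chaperone (r = 0.98), the ubiquitin gene Ubb (0.97), the cyclophilin Ppia (0.97), the translation factor Eif1 (0.97) and the ribosomal protein gene Rps29 (0.97). The summed ribosomal protein genes gave r = 0.95, and the mitochondrial genes without mt-Atp8 and mt-Nd4 gave r = -0.59. The profiles share libraries and clusters, and the correlations are a description.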

How the data were processed

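Hippocampal CD45-positive cells of 6 groups, with 1 library each, were profiled by 5' single-cell RNA sequencing. The authors deposited whole-number UMI counts per gene and cell, 1 matrix per library, with a table of cell type, cluster and batch per cell. Cell Ranger 2.2.0, Seurat 2.3.4 and the build mm10 are named per the submitters' processing notes. Not given in the sources used here are the filters on cells, the clustering and typing, the counting of overlapping genes and what defined a batch. The normalized and merged copies of the counts were not used.

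Counts of microglia, by the authors' cell types, were summed per library and divided by all UMIs of those cells (CPM, per 1000000 UMIs). With 1 library per group no test was made. Genes that reached 20 CPM in either library were compared by log2 ratios, in which counts of 0 to 2 in the lower library were set to 3, and described as apart at 1.5-fold. Exact 95% intervals (Poisson for levels, conditional binomial for ratios, Clopper-Pearson for shares) cover counting error only. Acute non-helpless and chronic non-helpless microglia were set against non-shocked microglia of their own batch. The comparisons share libraries, so no overlap or correlation between them is given. The members and the gene lists (ATP synthase, mitochondrial and cytosolic ribosome, citric acid cycle, cytochrome c and its maturation, biogenesis, glycolysis) were chosen with earlier results of these data known. Genes were named by rule: the 3 highest by mean CPM per complex, the 3 highest and 3 lowest ratios per comparison with at least 30 UMIs in the higher library, paralogous pairs, the 4 Sdh genes and the 5 genes most like the nuclear sum. Other genes named were chosen after their values were seen.

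Scrublet, run in scanpy 1.11.5, marked doublets, which were kept. Cells were thinned to 1000 and to 2000 UMIs for detection. Alternatives were another total, median-of-ratios scaling, equal weight per cell, limits on depth, mitochondrial and ribosomal share, a lower minimum level, doublets left out, and all non-shocked cells. Alternatives chosen after seeing the data were the sums without mt-Atp8 and mt-Nd4 or with mt-Cytb, the older symbol of Ndufaf8, and the marker check. Python 3.11.15, numpy 2.4.6, scipy 1.17.1, pandas 2.3.3 and matplotlib 3.10.9 were used, and the scripts were tested on simulated data. Transcript lengths and mitochondrial coordinates came from GENCODE M21 and promoters from RefSeq (GRCm38.p6).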

Additional observations from a re-analysis of the deposited data

Results flagged for a closer look

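The summed mitochondrial genes differed in opposite directions between helpless and non-helpless microglia in the acute and in the chronic phase. The log2 ratio was -0.10 for acute helpless against acute non-helpless microglia and 0.085 for chronic non-recovered against chronic non-helpless microglia. Without mt-Atp8 and mt-Nd4 the ratios were -0.12 and 0.075. With 1 library per group the difference between the phases was not tested, and the acute direction turned with equal weight per cell while the chronic one turned without ribosome-poor cells.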

How the results depend on the processing

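No paired analysis was possible because each group had 1 library, and leaving out a replicate was not possible for the same reason. All values here are log2 ratios or counts of nuclear genes at least 1.5-fold apart. The summed nuclear level kept its direction and size in 42 of 56 recomputations and moved in 14, and the summed mitochondrial level kept both in 40 of 62, moved in 12 and reversed in 10. With each cell weighted equally, the nuclear ratios were -0.064 (acute helpless against non-helpless), 1.00 (acute non-helpless against non-shocked), 0.24 (chronic non-helpless against non-shocked), -0.58 (non-recovered against non-helpless) and -0.69 (non-recovered against recovered). The mitochondrial ones, in the same order, were 0.054, -0.32, -0.21, 0.25 and 0.29, the first reversed. Median-of-ratios scaling, which moved the median of all genes by 0.36, -0.21 and -0.17 in the acute non-helpless and both non-recovered comparisons, gave nuclear ratios of 0.075, opposite in sign, 1.17, -0.54 and -0.70 in the comparisons it moved, and mitochondrial ones of -0.0065, 0.16, -0.088 and -0.068 there and -0.028 for recovered against non-helpless microglia. Without ribosome-poor cells the nuclear ratios were 0.32, 0.038, -0.11 and -0.20, and the mitochondrial ones -0.19 (acute helpless), 0.33, 0.12, -0.23 and -0.15, the last 4 reversed.

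In cells with under 5% mitochondrial UMIs the mitochondrial ratios were -0.15 (acute helpless), 0.10 (acute non-helpless, reversed), -0.054 (chronic non-helpless against non-shocked) and 0.023 (non-recovered against non-helpless). Against non-shocked cells of all batches the acute non-helpless ratios were 0.43 (nuclear) and 0.20 (mitochondrial, reversed), and the chronic non-helpless mitochondrial ratio was -0.14. A total without mitochondrial and ribosomal protein genes gave -0.14 for the acute non-helpless mitochondrial ratio. Single genes that reversed were mt-Atp6 with equal weight (0.048, acute helpless) and, without ribosome-poor cells, Sdhb (-0.085) and mt-Co3 (0.18) in acute non-helpless, mt-Atp6 (-0.26) and mt-Co1 (-0.032) in non-recovered against recovered, mt-Atp6 (-0.21) in non-recovered against non-helpless, and mt-Atp6 (0.082) and mt-Co3 (0.091) in chronic non-helpless against non-shocked microglia. Under median-of-ratios scaling mt-Co3 (0.12, acute non-helpless), mt-Atp6 (-0.079) and mt-Co1 (-0.052, both against recovered) reversed.

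The count for acute helpless against non-helpless microglia went from 0 to 2 at a minimum of 5 CPM and to 1 with equal weight or median-of-ratios scaling. That for acute non-helpless microglia went from 45 to 25 without ribosome-poor cells and to 13 against all non-shocked cells, where no share over all genes is given. Without ribosome-poor cells the non-recovered counts went from 29 to 10 against recovered and from 20 to 6 against non-helpless microglia, the latter reaching 33 with equal weight. For recovered against non-helpless microglia the count went from 0 to 1 at 5 CPM or with equal weight. For chronic non-helpless against non-shocked microglia it went from 1 to 2 at 5 CPM, in cells with at least 1000 UMIs, with the other total or after the marker check, to 0 without ribosome-poor cells and to 6 with equal weight. Thinning to 2000 UMIs gave means of 9.42 (non-recovered) to 14.4 (acute non-helpless) nuclear genes per cell. The cause of these shifts was not tested. Depth limits single genes most in non-recovered and batch 2 non-shocked microglia, where many had under 30 UMIs.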
